A study of Homo sapiens with 2 samples.

Results

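Cells that carried an sgRNA against ATF4 were compared directly with cells that carried an sgRNA against PGAM1, in a pooled CRISPR screen of PC9, a human lung adenocarcinoma line that depends on an activating mutation of the receptor EGFR. Barcodes passed with 1000 or more gene UMIs (unique molecular identifiers, each standing for 1 captured RNA molecule), 500 or more genes and a mitochondrial share of no more than 20%. The leading sgRNA of a cell was taken as its own if it reached 5 UMIs and 80% of all sgRNA UMIs there. By this rule 859 cells held 1 of 6 ATF4 sgRNAs and 333 cells held 1 of 4 PGAM1 sgRNAs, together 1192 of the 5556 cells with an assigned sgRNA and of the 10142 cells that were kept. The ATF4 cells were 15.5% of the assigned cells (14.5% to 16.4%, 95% exact binomial interval, counting error only) and the PGAM1 cells 5.99% (5.38% to 6.65%). Another 700 cells with 1 of 4 non-targeting sgRNAs took no part in the contrast, and their levels are given for orientation. All groups came from PC9 cells transduced with lentivirus at an infection rate near 40% in polybrene (8 ug/ml) and selected with puromycin (1 ug/ml). The labels name day 8 for the experiment and day 7 for a first harvest. The words knockout, knockdown and dCas9 (a Cas9 that binds DNA without cutting it) all occur in them, and which perturbation was used is uncertain. Vectors with several sgRNAs are described, and the 80% rule leaves out cells that show several sgRNAs at like levels. The sgRNA sequences were not analysed here.

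ATF4 is a bZIP transcription factor that is made when the translation initiation factor eIF2 is phosphorylated, the step at which the integrated stress response converges. It is known to raise genes of amino acid synthesis and uptake, tRNA charging and stress adaptation, and in lung cancer it is known for driving serine synthesis. PGAM1 is phosphoglycerate mutase of glycolysis. Its substrate is also the starting point of serine synthesis, which PHGDH, PSAT1 and PSPH carry out.

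Relative to PGAM1 sgRNA cells, ATF4 sgRNA cells had less of 23 of 93 transcripts of serine and amino acid synthesis, amino acid uptake, tRNA charging and the integrated stress response (beside 1.55% of all genes), and more of the immediate early genes FOS, FOSB, EGR1, DUSP1, KLF6 and IER2. NUPR1, a stress-induced chromatin protein, stood at 12.7 ± 7.35 against 63.3 ± 11.7 CPM (mean ± SD over 6 and 4 sgRNAs). FOS, a subunit of the transcription factor AP-1, stood at 88.4 ± 12.3 against 30.2 ± 6.15 CPM. With ATF4 sgRNAs 4 of 8 keratins, 5 of 13 mitochondrially encoded subunits and 9 of 41 genes of ribosome biogenesis were higher (beside 1.47% of all genes). Lower were 5 of 18 heat shock chaperones, 19 of 79 ribosomal proteins and 7 of 54 mitotic genes (beside 1.55%). The lists were chosen with earlier results of these data known, so these counts are descriptive. Some of these counts rested on single sgRNAs or on which cells were summed. Without PGAM1 sgRNA4, 5 biogenesis genes were higher and 6 ribosomal proteins lower, and without PGAM1 sgRNA3 2 mitotic genes were lower. In G1-scored cells, which are chosen for low scores of S and G2/M genes, no biogenesis gene was higher and no mitotic gene lower. In cells with at most 10% mitochondrial UMIs, 0 biogenesis genes, 2 keratins and 1 mitochondrially encoded subunit were higher, and 2 heat shock chaperones, 3 ribosomal proteins and 1 mitotic gene lower. In those cells 0 of 11 amino acid transporters and 0 of 20 tRNA synthetases were lower, and 3 of 21 immediate early genes higher. Also lower there were 3 of 12 serine and one-carbon enzymes, 3 of 18 other amino acid enzymes and 5 of 23 stress effectors. Over all 8767 genes tested in those cells 54 were higher and 53 lower, against 170 and 179 of 11570 in the main fit. Medians there were -0.14 for transporters, -0.16 for synthetases and 0.30 for immediate early genes (main fit -0.18, -0.17 and 0.15). G1-scored cells gave 34 higher and 81 lower of 10343. The mitochondrial limit selects cells on the UMIs of the mitochondrially encoded subunits themselves. CPM here means counts per 1000000 gene UMIs, over all cells of an sgRNA.

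Both targets were read in 1 joint matrix of an sgRNA library and a gene expression library, 1 culture in all, so p-values measure the spread between sgRNAs and not between cultures. ATF4 sgRNA1 to 6 were held by 97, 49, 113, 256, 133 and 211 cells, and PGAM1 sgRNA1 to 4 by 37, 54, 107 and 135 cells. Sums per sgRNA ranged from 628639 to 3371762 gene UMIs for ATF4 and from 499659 to 1615600 for PGAM1. Median depth per cell averaged 12826 UMIs over ATF4 sgRNAs and 12426 over PGAM1 sgRNAs (exact two-sided permutation test, p = 0.495). At least 5 UMIs of sgRNAs of both targets were found in 39 of the kept cells. The 10 lung epithelial markers of PC9 cells were all detected, with a summed level of 11149 to 11796 CPM with ATF4 sgRNAs, 9721 to 10542 CPM with PGAM1 sgRNAs and 11827 to 13225 CPM with non-targeting sgRNAs. Of 9 immune markers 4 were detected in each group (summed level 16.02 to 24.1 and 10.0 to 24.4 CPM), with CD3D, CD3E, MS4A1 and NKG7 at 0 in both. Of 9 fibroblast and endothelial markers 2 were detected (2.86 to 5.00 and 0 to 8.12 CPM).

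In the cells themselves, mitochondrial UMIs were 10.6% ± 0.728 of gene UMIs with ATF4 sgRNAs and 9.61% ± 0.733 with PGAM1 sgRNAs (SD over 6 and 4 per-sgRNA medians), and the 2 ranges overlapped, from 9.28% to 11.2% and from 8.52% to 10.1%. The exact two-sided permutation test gave p = 0.0857, or 0.257 after Benjamini-Hochberg adjustment over 6 measures. With 6 against 4 sgRNAs the smallest p of this exact test is 0.00952. G1-scored cells made up 57.2% ± 3.98 with ATF4 sgRNAs and 51.6% ± 4.11 with PGAM1 sgRNAs (exact permutation p = 0.0667, adjusted 0.257), and 58.2% with non-targeting sgRNAs. G2/M-scored cells made up 31.4% ± 6.17 and 34.7% ± 2.29 (exact permutation p = 0.352, adjusted 0.529). None of the 6 measures passed after adjustment, and a single measure at that smallest p could not have passed alone. When every cell was thinned to 5000 UMIs, the G2/M shares were 28.3% and 35.6% (exact permutation p = 0.124), with 5 ATF4 and 2 PGAM1 cells left out as too shallow.

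**Figure D1:**
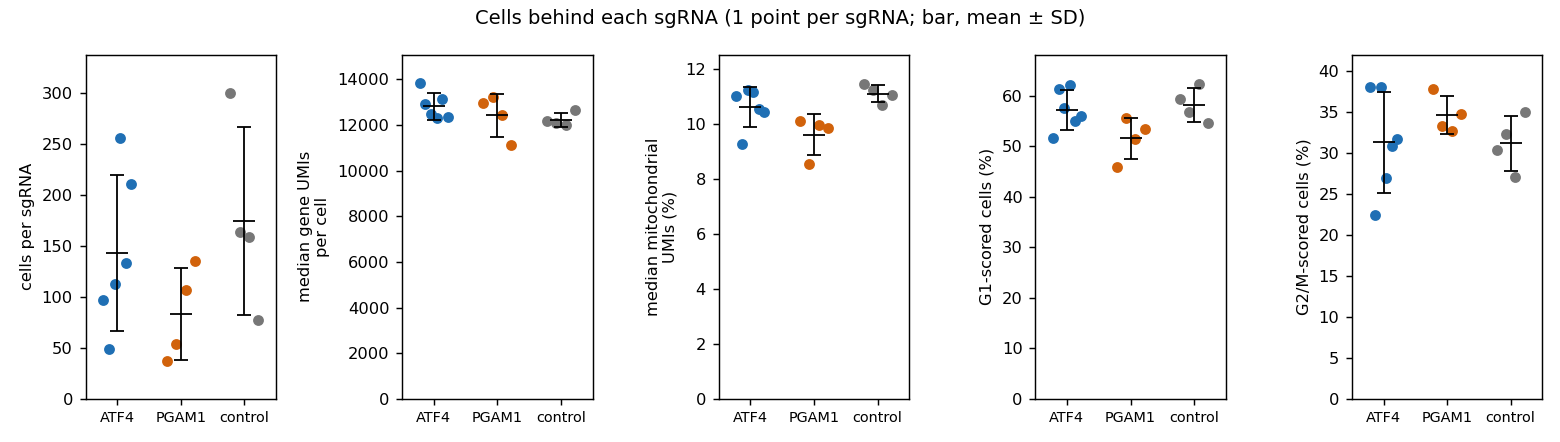
Cells per sgRNA, median gene UMIs per cell, median mitochondrial UMIs (% of gene UMIs) and shares of G1-scored and G2/M-scored cells (%), 1 point per sgRNA in order of its number, with the mean and SD of each target. The ATF4 and PGAM1 groups overlap in every panel, and PGAM1 sgRNA1 (37 cells) and ATF4 sgRNA2 (49 cells) hold the fewest cells of their target. For the mitochondrial share the PGAM1 sgRNAs (8.52% to 10.1%) lie below all non-targeting sgRNAs (10.7% to 11.4%).

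The targeted transcripts matched the labels. PGAM1 (ENSG00000171314, chr10:97426191-97433444, GRCh38.p14) stood at 217, 215, 204, 214, 222 and 223 CPM with ATF4 sgRNA1 to 6 and at 102, 73.1, 65.5 and 53.2 CPM with PGAM1 sgRNA1 to 4, with 213, 206, 204 and 209 CPM with the non-targeting sgRNAs. The groups did not overlap, the ATF4 sgRNAs lay at the non-targeting level, and PGAM1 sgRNA1, held by the fewest cells, kept the most PGAM1 transcript. The difference was the one of smallest p among all genes (log2 fold change 1.68 ± 0.088 (SE), adjusted p = 3.1e-25). The fit weights sgRNAs by depth, and with all sums thinned to the smallest total the log2 fold change was 1.40.

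ATF4 itself (ENSG00000128272, chr22:39520559-39522686) stood at 266, 274, 246, 332, 258 and 186 CPM with ATF4 sgRNA1 to 6 and at 412, 334, 379.5 and 351 CPM with the PGAM1 sgRNAs, with 376, 372, 343 and 355 CPM with the non-targeting sgRNAs. Every ATF4 sgRNA lay below every PGAM1 sgRNA, though ATF4 sgRNA4 came close to PGAM1 sgRNA2, and ATF4 sgRNA6 had the lowest level. The transcript was lower by far less than PGAM1 in the opposite group (log2 fold change -0.49 ± 0.078 (SE), adjusted p = 1.0e-05). Both target transcripts kept their direction and their call under all 20 alternatives run.

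**Figure D2:**
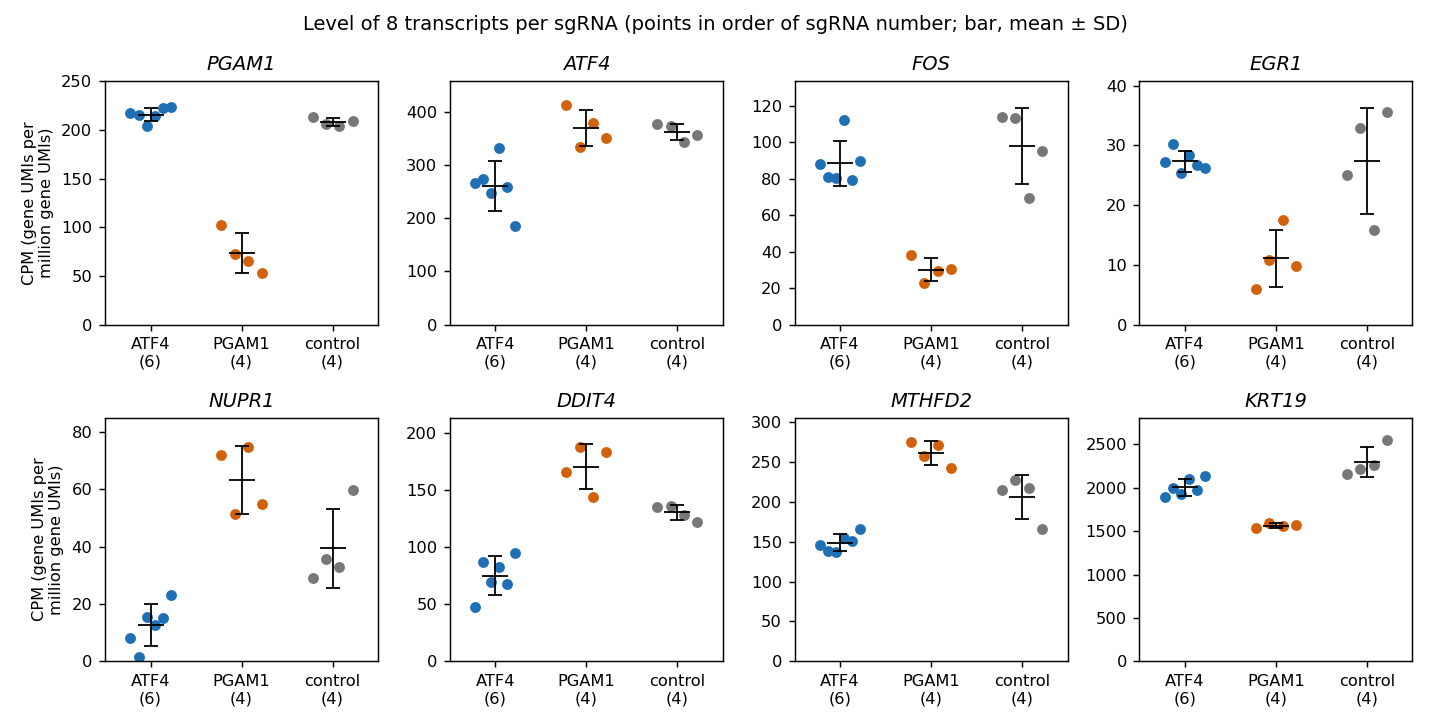
Levels of 8 transcripts (CPM, each axis from 0) with the 6 ATF4, 4 PGAM1 and 4 non-targeting sgRNAs, 1 point per sgRNA in order of its number, with mean and SD. PGAM1, FOS, EGR1 and KRT19 lie higher with every ATF4 sgRNA than with any PGAM1 sgRNA, and ATF4, NUPR1, DDIT4 and MTHFD2 lie lower.

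Across the transcriptome 11570 genes were tested with edgeR's quasi-likelihood test on counts summed per sgRNA, and 349 (3.02%) passed an adjusted p of 0.05. Of these, 170 (1.47% of genes tested) were higher and 179 (1.55%) lower with ATF4 sgRNAs; every log2 fold change below is ATF4 minus PGAM1 unless it names the non-targeting sgRNAs. Differences were mostly modest: the median absolute log2 fold change of the 349 genes was 0.41, and 36 of them exceeded 1, of which 13 were higher and 23 lower. The sgRNAs of the 2 targets did not overlap at all in 259 of the 349 genes, against 620 (5.36%) of all genes tested (2.77% higher and 2.58% lower with ATF4 sgRNAs). The non-targeting mean lay between the means of the 2 targets for 297 of the 349 genes (85.1%), and for 40.2% of all genes tested. A wide gap between the 2 targets makes this more frequent by itself. Of all 349, the non-targeting mean was nearer to ATF4 for 158 (45.3%) and nearer to PGAM1 for 191. Over all genes tested it was nearer to ATF4 for 54.3%. Without PGAM1 sgRNA4, the PGAM1 sgRNA held by the most cells, 199 genes passed, and without PGAM1 sgRNA3 106 rather than 170 were higher. In a fit of the 10 sgRNAs alone, 326 of the 349 genes passed as well.

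**Figure D3:**
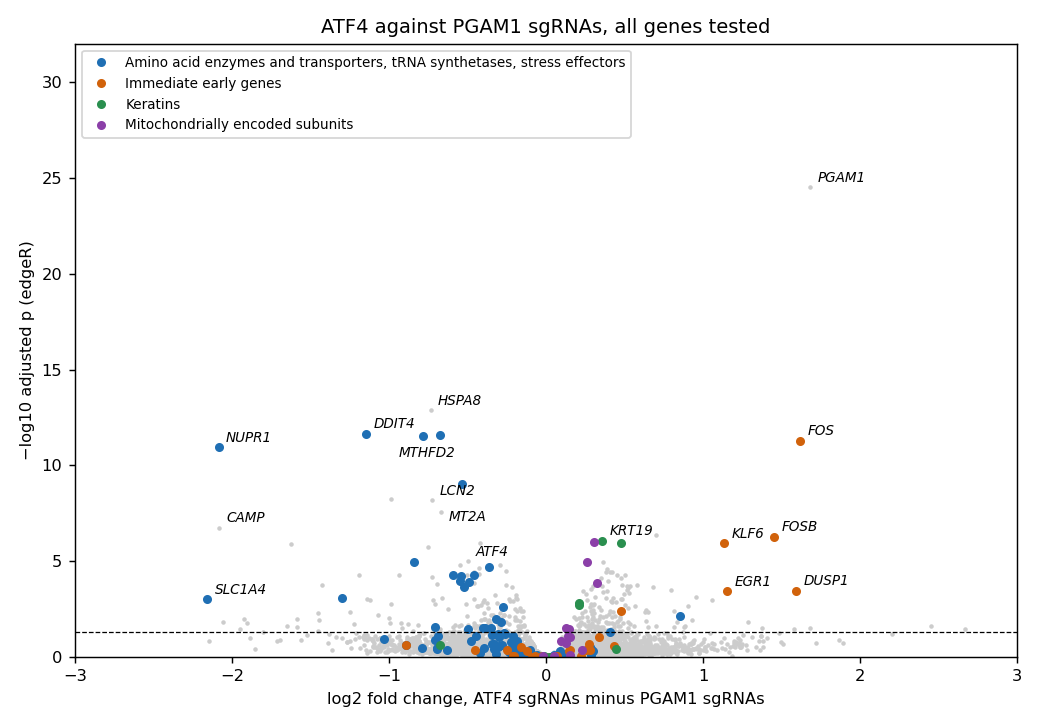
Log2 fold change (ATF4 minus PGAM1 sgRNAs) against −log10 of the edgeR adjusted p for the 11570 genes tested, with the dashed line at 0.05. PGAM1 is the topmost point (log2 1.68), and genes of amino acid metabolism and the stress response lie mainly to the left. The 6 immediate early genes past the threshold lie to the right, while of all 27 tested 16 lie above 0 and 11 below.

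Of 93 tested genes in 5 lists of amino acid and stress genes, 23 were lower and 2 higher with ATF4 sgRNAs, beside 1.55% and 1.47% of all genes, and 73 had a log2 fold change below 0. The median over the 93 genes was -0.26, against -0.01 over all genes. Of the 25 that passed, 16 passed with any 1 sgRNA left out. The lists were chosen with earlier results of these data known, so their shares are a description and no independent support.

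Serine synthesis and one-carbon enzymes came first among these lists. MTHFD2, the mitochondrial folate enzyme of one-carbon metabolism, stood at 137 to 165 CPM (median 148) with the ATF4 sgRNAs and 274, 257, 270.4 and 242 CPM with the PGAM1 sgRNAs. PSAT1, the aminotransferase of serine synthesis, stood at 149.8 to 194 CPM (median 167) with the ATF4 sgRNAs and 240.2, 277, 291 and 264 CPM with the PGAM1 sgRNAs. PHGDH, the dehydrogenase that commits phosphoglycerate to serine, stood at 386 to 477 CPM (median 414) with the ATF4 sgRNAs and 588, 618, 610.4 and 618 CPM with the PGAM1 sgRNAs. For all 3 enzymes every ATF4 sgRNA lay below every PGAM1 sgRNA, as in 2.58% of all genes tested and in 125 of the 179 called lower. MTHFD2 gave a log2 fold change -0.78 ± 0.076 (SE), adjusted p = 2.8e-12, PSAT1 a log2 fold change -0.68 ± 0.065 (SE), adjusted p = 2.7e-12 and PHGDH a log2 fold change -0.54 ± 0.061 (SE), adjusted p = 9.8e-10. The non-targeting mean of MTHFD2 was 206 CPM, between the groups, and those of PSAT1 (245 CPM) and PHGDH (566 CPM) lay nearer to the PGAM1 sgRNAs. PSPH, the phosphatase that releases serine, differed less (163 against 199 CPM, log2 -0.32, adjusted p = 0.010), and its sgRNAs overlapped between the groups. In all, 5 of 14 tested members were lower and the median log2 fold change was -0.31. Without PGAM1 sgRNA4 there were 3, and PSPH lost its call there and without PGAM1 sgRNA2 (adjusted p up to 0.10). SHMT2, the mitochondrial serine hydroxymethyltransferase, missed the threshold (log2 -0.30, adjusted p = 0.062).

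Among 21 enzymes of asparagine, cysteine, proline and aspartate metabolism, 4 were lower and 1 higher, with a median of -0.30. CTH, which makes cysteine from cystathionine, stood at 5.00 to 8.90 CPM (median 7.66) with the ATF4 sgRNAs and 16.011, 13.5, 22.5 and 17.9 CPM with the PGAM1 sgRNAs, with no overlap (log2 fold change -1.30 ± 0.27 (SE), adjusted p = 8.5e-04). PCK2, mitochondrial phosphoenolpyruvate carboxykinase, stood at 81.2 ± 12.5 against 123 ± 4.73 CPM (log2 fold change -0.54 ± 0.095 (SE), adjusted p = 6.3e-05). ASS1, argininosuccinate synthase of arginine synthesis, was lower as well (69.0 ± 11.03 against 103 ± 14.96 CPM, log2 -0.59, adjusted p = 5.6e-05). By contrast ASL, argininosuccinate lyase and the next enzyme of that route, was higher (19.3 ± 3.33 against 9.29 ± 4.17 CPM, log2 0.85, adjusted p = 0.0074). BCAT1, a branched-chain aminotransferase, was lower by a smaller margin (90.03 ± 18.4 against 117 ± 9.69 CPM, log2 -0.39, adjusted p = 0.030). ASL lost its call without PGAM1 sgRNA2 (adjusted p = 0.062) and BCAT1 in 4 of the 10 fits without 1 sgRNA (up to 0.16). CTH and PCK2 did not pass in G1-scored cells. ASNS, asparagine synthetase and a textbook ATF4 target, was near the limit of counting and did not pass (2.95 ± 0.960 against 4.56 ± 2.87 CPM, log2 -0.70, adjusted p = 0.40).

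Of 14 amino acid transporters, 4 were lower and the median was -0.18. SLC1A5, a glutamine transporter, stood at 60.5 to 81.1 CPM (median 65.8) with the ATF4 sgRNAs and 122, 86.6, 88.7 and 99.0 CPM with the PGAM1 sgRNAs, without overlap (log2 fold change -0.53 ± 0.099 (SE), adjusted p = 2.2e-04). SLC1A4, a neutral amino acid transporter, had the largest decrease of any gene that passed but few UMIs (1.57 ± 1.06 against 7.47 ± 2.32 CPM, log2 -2.16, adjusted p = 9.8e-04). SLC7A5, the light chain of a leucine transporter (31.4 ± 5.08 against 50.4 ± 15.9 CPM, log2 -0.50, adjusted p = 0.035), and SLC7A11, the cystine antiporter (94.1 ± 14.6 against 126 ± 12.99 CPM, log2 -0.35, adjusted p = 0.030), were lower too. SLC7A5 and SLC7A11 both lost their calls without PGAM1 sgRNA1, PGAM1 sgRNA2 or ATF4 sgRNA1, which left 2 in the list, and the highest adjusted p was 0.19 for SLC7A5 and 0.12 for SLC7A11. SLC3A2, the heavy chain that partners both light chains, did not pass (log2 -0.21, adjusted p = 0.078).

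Aminoacyl-tRNA synthetases load amino acids onto tRNAs, and 4 of 20 cytosolic ones were lower (median -0.17), here under the symbols of the files. CARS, which loads cysteine, stood at 78.2 to 97.0 CPM (median 87.8) with the ATF4 sgRNAs and 124, 108, 142 and 117 CPM with the PGAM1 sgRNAs (log2 fold change -0.49 ± 0.089 (SE), adjusted p = 1.2e-04). GARS, which loads glycine, stood at 107 to 156 CPM (median 136) with the ATF4 sgRNAs and 192, 187, 199.96 and 184 CPM with the PGAM1 sgRNAs (log2 fold change -0.46 ± 0.080 (SE), adjusted p = 5.5e-05). EPRS, which loads glutamate and proline (349 ± 28.1 against 430.3 ± 28.3 CPM, log2 -0.28, adjusted p = 0.0026), and SARS, which loads serine (164 ± 13.1 against 199 ± 18.9 CPM, log2 -0.29, adjusted p = 0.015), differed by less. SARS overlapped between the groups and lost its call without PGAM1 sgRNA3 or sgRNA4 (adjusted p up to 0.15). In cells with at most 10% mitochondrial UMIs none of the 20 passed, CARS and GARS included. The median there was -0.16, and 53 of all 8767 genes tested were lower. IARS, LARS and MARS missed the threshold with log2 fold changes of -0.27, -0.26 and -0.34.

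Effectors of the integrated stress response gave 6 lower and 1 higher of 25 tested, with a median of -0.30. NUPR1 stood at 8.11, 1.59, 15.6, 12.8, 14.99 and 23.3 CPM with ATF4 sgRNA1 to 6, at 72.0, 51.4, 74.6 and 55.1 CPM with PGAM1 sgRNA1 to 4 and at 29.2, 35.8, 32.8 and 59.7 CPM with the non-targeting sgRNAs. The 2 targets lay on opposite sides of the non-targeting mean of 39.4 CPM and did not overlap (log2 fold change -2.09 ± 0.21 (SE), adjusted p = 1.2e-11). DDIT4, an inhibitor of the growth kinase mTORC1, showed the same order, at 48.0, 87.5, 69.6, 83.0, 67.7 and 94.9 CPM with ATF4 sgRNAs and 166, 188, 144 and 184 CPM with PGAM1 sgRNAs, around a non-targeting mean of 131 CPM (log2 fold change -1.15 ± 0.11 (SE), adjusted p = 2.2e-12). STC2, a secreted glycoprotein of the stress response, stood at 27.5 ± 4.04 against 49.2 ± 11.3 CPM (log2 -0.84, adjusted p = 1.2e-05). EIF4EBP1, a translation repressor, stood at 330.1 ± 18.8 against 426 ± 19.2 CPM (log2 -0.36, adjusted p = 2.0e-05). These 4 genes passed under all 20 alternatives run. JDP2, a bZIP repressor (59.7 ± 6.26 against 89.8 ± 10.2 CPM, log2 -0.55, adjusted p = 1.1e-04), and DDIT3, the stress factor CHOP (20.9 ± 5.42 against 36.02 ± 12.2 CPM, log2 -0.71, adjusted p = 0.027), were also lower. DDIT3 lost its call in 4 of the 10 fits without 1 sgRNA (up to 0.14); PGAM1 sgRNA1 alone stood at 54.0 CPM. PPP1R15A, a phosphatase subunit that reverses eIF2 phosphorylation, was higher at the edge of the threshold (95.6 ± 16.5 against 73.2 ± 16.3 CPM, log2 0.41, adjusted p = 0.050), a call lost in 7 of those 10 fits. TRIB3, a stress-induced pseudokinase, gave log2 0.05, adjusted p = 0.90, CHAC1, which degrades glutathione, log2 -0.71, adjusted p = 0.13, and ATF3, a bZIP factor, log2 -0.89, adjusted p = 0.26; none of the 3 passed.

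To show what promoter sequence the members share, the 250 bases before the annotated start were searched on both strands for TGATGNAA, the element that C/EBP and ATF4 dimers are known to bind, in RefSeq promoters of GRCh38.p14. It occurs in 3.19% of 27305 promoters. Among tested members whose promoter was in the table, it occurred in 1 of 10 serine and one-carbon enzymes (MTHFD1L), 3 of 15 enzymes of the asparagine list (ASNS, GOT1 and BCAT1), 0 of 13 transporters, 2 of 16 tRNA synthetases (AARS and IARS) and 3 of 20 stress effectors (CHAC1, PPP1R15B and ATF3). BCAT1 was the 1 gene of these that passed the test. Its element and that of ASNS are shown with 30 flanking bases, read 5′ to 3′ on the gene's strand, the match in capitals.
BCAT1, chr12:24949112-24949179, minus strand: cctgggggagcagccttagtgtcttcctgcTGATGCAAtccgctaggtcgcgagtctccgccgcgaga
ASNS, chr7:97872439-97872506, minus strand: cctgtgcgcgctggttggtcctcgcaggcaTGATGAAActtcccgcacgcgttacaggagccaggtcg
These letters lie 48 bases before the start used for BCAT1 and 68 bases before that of ASNS, counted at the first base of the match. The BCAT1 start used is an inner one, since the gene's annotated interval reaches chr12:24949340 and holds the stretch shown. Most members that were lower do not hold the element in this window.

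Immediate early genes, which cells transcribe within minutes of growth factor signalling, went the other way: 6 of 27 tested members were higher with ATF4 sgRNAs, beside 1.47% of all genes, and none was lower. FOS stood at 87.8, 81.1, 80.6, 112, 79.4 and 89.5 CPM with ATF4 sgRNA1 to 6, at 38.0, 23.0, 29.6 and 30.3 CPM with PGAM1 sgRNA1 to 4 and at 114, 113, 69.6 and 95.4 CPM with the non-targeting sgRNAs. The lowest ATF4 sgRNA was above the highest PGAM1 sgRNA, and the ATF4 range lay within the non-targeting range. FOS gave a log2 fold change 1.62 ± 0.16 (SE), adjusted p = 5.2e-12. Its paralog FOSB stood at 27.3, 19.1, 32.5, 37.4, 28.3 and 31.9 CPM with ATF4 sgRNAs and 10.0, 10.8, 13.4 and 10.5 CPM with PGAM1 sgRNAs (log2 fold change 1.45 ± 0.20 (SE), adjusted p = 5.3e-07). EGR1, a zinc finger transcription factor, stood at 27.3, 30.2, 25.4, 28.5, 26.6 and 26.1 CPM and 6.00, 10.8, 17.6 and 9.90 CPM, with little spread among ATF4 sgRNAs (log2 fold change 1.15 ± 0.22 (SE), adjusted p = 3.8e-04). DUSP1, a phosphatase that switches off MAP kinases, stood at 24.3, 9.54, 19.5, 14.5, 22.8 and 16.1 CPM and 4.003, 8.12, 5.63 and 5.57 CPM (log2 fold change 1.59 ± 0.31 (SE), adjusted p = 3.5e-04). KLF6, a zinc finger factor, stood at 76.0, 41.4, 51.4, 50.4, 38.9 and 49.4 CPM and 32.02, 21.7, 22.5 and 21.7 CPM (log2 fold change 1.13 ± 0.16 (SE), adjusted p = 1.2e-06), and IER2 at 119 ± 15.4 against 83.3 ± 5.99 CPM (log2 0.48, adjusted p = 0.0039). None of the 6 genes overlapped between the groups, and all 6 passed with any 1 sgRNA left out. Over all genes tested 2.77% were higher without overlap, and so were 134 of the 170 genes called higher.

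The size of these differences depended on which cells were summed. In cells with at most 10% mitochondrial UMIs, where PGAM1 sgRNA1 fell out with 18 cells, FOS still passed (log2 1.39, adjusted p = 3.1e-06), while FOSB (log2 0.73, adjusted p = 0.22) and EGR1 (log2 0.77, adjusted p = 0.20) did not. IER2 passed neither there nor in G1-scored cells, and EGR1 and DUSP1 did not in G1-scored cells. Mitochondrial UMIs were lower with PGAM1 sgRNAs (9.61% against 10.6%), and their part in the result was not tested. Other members did not pass: JUN, the partner of FOS in AP-1, gave log2 0.34, adjusted p = 0.088, JUNB log2 0.15, adjusted p = 0.45, FOSL1 log2 0.28, adjusted p = 0.42 and ATF3 log2 -0.89, adjusted p = 0.26. The median of the 27 members was 0.15. Of 22 EGFR and MAP kinase feedback and ligand genes 1 passed, beside 3.02% of all genes. This was EPHA4, an ephrin receptor (24.7 ± 5.29 against 13.6 ± 3.80 CPM, log2 0.83, adjusted p = 0.016), and it lost its call in 4 of the 10 fits without 1 sgRNA (up to 0.070). DUSP6, a feedback phosphatase of ERK, gave log2 -0.08, adjusted p = 0.90 and EGFR log2 0.10, adjusted p = 0.52.

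The promoters of EGR1 and DUSP1 hold elements known from this gene class and are shown for that reason, from RefSeq (GRCh38.p14). The CArG box, bound by serum response factor, occurs in 1.14% of promoters and the cyclic AMP response element TGACGTCA in 1.77%, in the same 250 bases on both strands. A CArG box was found in 2 of 21 immediate early promoters (EGR1 and SRF) and a cyclic AMP response element in 2 of 21 (JUND and DUSP1), with the match in capitals below.
EGR1, chr5:138465344-138465435, plus strand: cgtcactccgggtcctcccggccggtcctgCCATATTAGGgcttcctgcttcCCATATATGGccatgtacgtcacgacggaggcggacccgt
DUSP1, chr5:172771283-172771350, minus strand: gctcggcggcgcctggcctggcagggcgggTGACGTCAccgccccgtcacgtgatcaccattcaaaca
The EGR1 window holds 2 CArG boxes, 105 and 83 bases before the start, and the DUSP1 element begins 125 bases before it. Whether either factor was bound was not measured.

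Set against the non-targeting sgRNAs, which both targets share and which therefore tie the 2 values, the values were as follows. NUPR1 was at log2 -1.29 with ATF4 sgRNAs and 0.80 with PGAM1 sgRNAs, DDIT4 at -0.81 and 0.34, and MTHFD2 at -0.50 and 0.28. PHGDH (-0.46 and 0.08), PSAT1 (-0.56 and 0.12), CTH (-1.23 and 0.07) and GARS (-0.45 and 0.01) were away from the non-targeting level mainly with ATF4 sgRNAs. STC2 (-0.33 and 0.51), DDIT3 (-0.19 and 0.52) and JDP2 (-0.25 and 0.30) lay nearer to the non-targeting level with ATF4 than with PGAM1 sgRNAs, as did SLC1A4 (-0.91 and 1.25). ASL (0.12 and -0.74) was away from it mainly with PGAM1 sgRNAs. FOS (-0.16 and -1.78), FOSB (0.00 and -1.45) and EGR1 (0.03 and -1.12) were away from it mainly with PGAM1 sgRNAs, and KLF6 on both sides (0.41 and -0.72).

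**Figure D4:**
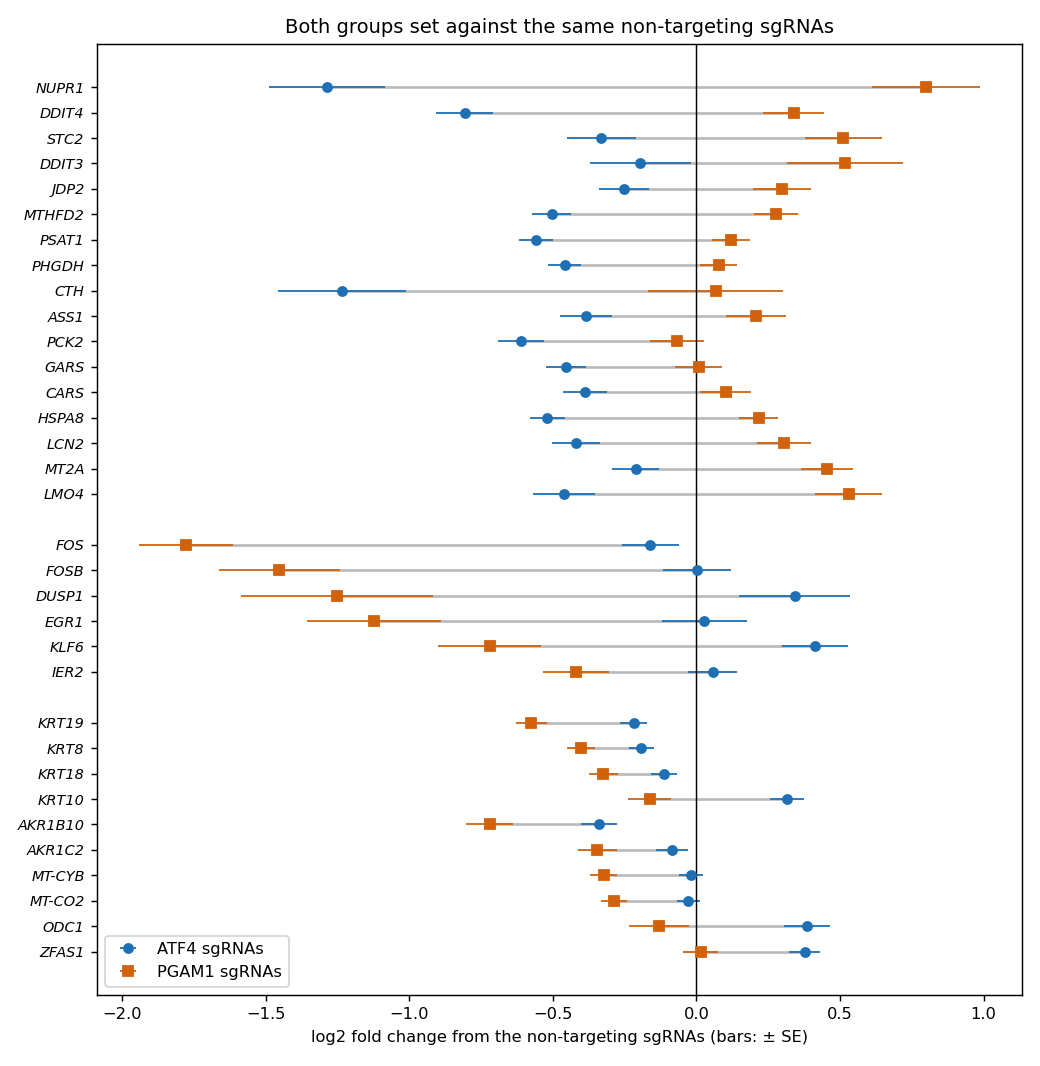
Log2 fold change from the non-targeting sgRNAs (± SE) for 33 named genes, circles for ATF4 and squares for PGAM1 sgRNAs. Both targets share the same non-targeting sgRNAs; the amino acid and stress genes at the top lie left of 0 with ATF4 sgRNAs, FOS, FOSB and EGR1 lie left of 0 with PGAM1 sgRNAs, and KRT19 and AKR1B10 lie left of 0 with both.

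Apart from PGAM1, no glycolysis enzyme passed among 19 tested in the main edgeR fit. With DESeq2, without a filter on low counts and with the looser or stricter sgRNA rule 2 were higher, PGAM1 included. TPI1, triose phosphate isomerase, came nearest (837 ± 35.4 against 745 ± 25.1 CPM, log2 0.16, adjusted p = 0.054). ENO1, the enolase that follows PGAM1, gave 460.3 against 458 CPM (log2 0.00, adjusted p = 1.00), and PGK1, which precedes it, 353 against 353 CPM (log2 -0.02, adjusted p = 0.95). None of 16 genes of glucose sensing and transport passed the main edgeR fit, where 2 had an unadjusted p under 0.05, or DESeq2, which gave 11 of them no adjusted p. The looser sgRNA rule called 1 lower. SLC16A1, a lactate transporter (34.3 ± 5.12 against 41.2 ± 4.95 CPM, log2 -0.33, adjusted p = 0.17), and TXNIP, an inhibitor of glucose uptake that glucose metabolites induce (184 ± 17.7 against 202 ± 21.6 CPM, log2 -0.18, adjusted p = 0.26), had the smallest p.

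Of 29 pentose phosphate and NRF2 genes, 3 were lower and 1 higher, all by small folds, beside 1.55% and 1.47% of all genes. UGDH, which makes UDP-glucuronate, was higher (168 ± 8.12 against 136 ± 10.2 CPM, log2 0.29, adjusted p = 0.025). SLC7A11, named above, TXNRD1, thioredoxin reductase (334 ± 18.2 against 396 ± 50.9 CPM, log2 -0.25, adjusted p = 0.015), and PRDX1, a peroxiredoxin (1459 ± 58.3 against 1639 ± 56.1 CPM, log2 -0.17, adjusted p = 0.024), were lower. Each of the 4 lost its call in some fit without 1 sgRNA, and without PGAM1 sgRNA2 none passed. Among 8 aldo-keto reductases, enzymes that reduce aldehydes and ketones, AKR1B10 (267 ± 19.7 against 202 ± 22.4 CPM, log2 0.38, adjusted p = 8.5e-04) and AKR1C2 (345 ± 14.6 against 286 ± 11.3 CPM, log2 0.26, adjusted p = 0.0085) were higher with ATF4 sgRNAs, without overlap (beside 1.47% of all genes called higher and 2.77% higher without overlap). AKR1C2 shares sequence with AKR1C1 (log2 0.07, adjusted p = 0.82), and how reads common to both were counted is not known here. AKR1C2 lost its call without PGAM1 sgRNA3 (adjusted p = 0.11), and neither passed in G1-scored cells or in thinned sums.

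Of 13 mitochondrially encoded subunits of the respiratory chain, 5 passed, all higher with ATF4 sgRNAs, and 12 of 13 lay above 0 (median 0.14). In cells with at most 10% mitochondrial UMIs 1 passed and the median was 0.01. That limit is set on the summed UMIs of these same genes and narrows their range by selection, so this fit cannot show whether their difference depends on the cells. MT-CYB, cytochrome b, stood at 10788 to 12060.2 CPM (median 11831) with the ATF4 sgRNAs and 9795, 8384, 9874 and 9667 CPM with the PGAM1 sgRNAs. MT-CO2, a subunit of cytochrome c oxidase, stood at 15452 to 17144 CPM (median 16944) with the ATF4 sgRNAs and 14346, 12892, 13899 and 14125 CPM with the PGAM1 sgRNAs. Neither overlapped between groups, and PGAM1 sgRNA2 was lowest for both. MT-CYB gave a log2 fold change 0.30 ± 0.043 (SE), adjusted p = 1.0e-06, and MT-CO2 a log2 fold change 0.26 ± 0.041 (SE), adjusted p = 1.2e-05. MT-ND5, a complex I subunit, was higher with overlapping sgRNAs (1847 ± 116 against 1488 ± 247 CPM, log2 0.32, adjusted p = 1.4e-04). MT-ATP6 (log2 0.14, adjusted p = 0.037) and MT-CO1 (log2 0.13, adjusted p = 0.031) differed by less, and each lost its call in 7 of the 10 fits without 1 sgRNA (up to 0.27 and 0.13). The cells' mitochondrial share moved with these genes, as it is made of them (10.6% against 9.61%, exact permutation p = 0.0857). Of 37 nuclear-encoded subunits of complex I 3 were higher, beside 1.47% of all genes. These were NDUFB9 (272 ± 10.1 against 208 ± 14.5 CPM, log2 0.38, adjusted p = 3.5e-05), NDUFB10 (338 ± 18.4 against 273 ± 10.3 CPM, log2 0.30, adjusted p = 0.0020) and NDUFS6 (868 ± 40.8 against 727 ± 40.9 CPM, log2 0.26, adjusted p = 0.0010), none of them with overlapping sgRNAs (beside 2.77% of all genes higher without overlap).

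Keratins, the intermediate filament proteins of epithelia, were higher with ATF4 sgRNAs in 4 of 8 cases, and all 4 passed with any 1 sgRNA left out. KRT19 stood at 1889 to 2140.5 CPM (median 1988) with the ATF4 sgRNAs and 1533, 1601, 1560.3 and 1567 CPM with the PGAM1 sgRNAs (log2 fold change 0.36 ± 0.051 (SE), adjusted p = 8.8e-07). KRT10 stood at 283 to 334 CPM (median 306) with the ATF4 sgRNAs and 200.1, 244, 223 and 196 CPM with the PGAM1 sgRNAs (log2 fold change 0.48 ± 0.069 (SE), adjusted p = 1.2e-06). KRT8 (1451 ± 58.5 against 1256 ± 71.0 CPM, log2 0.21, adjusted p = 0.0019) and its partner KRT18 (4169 ± 105 against 3597 ± 249.8 CPM, log2 0.21, adjusted p = 0.0016) differed by less. None of the 4 overlapped, beside 2.77% of all genes tested that were higher without overlap. KRT8 and KRT18 passed neither in G1-scored cells nor under the 10% limit on mitochondrial UMIs. For KRT19, KRT8 and KRT18 both groups were below the non-targeting means (2297, 1633 and 4421 CPM), PGAM1 further than ATF4. KRT7 did not pass (2350.0 ± 95.5 against 2367 ± 107 CPM, log2 -0.02, adjusted p = 0.95). Of 26 epithelial junction genes 1 was higher and 1 lower, beside 1.47% and 1.55% of all genes. CLDN4, a claudin, was higher (149 ± 30.6 against 102 ± 9.44 CPM, log2 0.42, adjusted p = 0.016). It lost its call without PGAM1 sgRNA1, sgRNA2 or sgRNA3 or ATF4 sgRNA3 (adjusted p up to 0.060). ESRP1, an epithelial splicing regulator, was lower (63.6 ± 3.63 against 87.7 ± 8.198 CPM, log2 -0.46, adjusted p = 9.1e-04). The adhesion molecules EPCAM (log2 0.07, adjusted p = 0.69) and CDH1 (log2 -0.06, adjusted p = 0.91) did not pass.

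Of 11 antimicrobial and antiprotease genes 2 passed, both lower with ATF4 sgRNAs (beside 1.55% of all genes), and all 11 lay below 0 (median -0.31). LCN2, the iron-sequestering lipocalin, stood at 420.0 to 646 CPM (median 579) with the ATF4 sgRNAs and 1301, 802, 780.1 and 913 CPM with the PGAM1 sgRNAs (log2 fold change -0.73 ± 0.088 (SE), adjusted p = 6.5e-09), with PGAM1 sgRNA1 the highest. CAMP, the cathelicidin antimicrobial peptide, stood at 1.48, 3.18, 3.90, 5.93, 6.11 and 4.30 CPM with ATF4 sgRNA1 to 6 and at 18.0, 16.2, 24.6 and 17.3 CPM with PGAM1 sgRNA1 to 4 (log2 fold change -2.08 ± 0.28 (SE), adjusted p = 1.8e-07). For CAMP the PGAM1 sgRNAs lay at the non-targeting mean of 20.3 CPM. Metallothioneins, which bind zinc and copper, were lower in 2 of 5 cases (beside 1.55% of all genes), with all 5 below 0. MT2A stood at 563 ± 69.1 against 899 ± 171 CPM (log2 fold change -0.67 ± 0.084 (SE), adjusted p = 2.6e-08). MT1X stood at 97.2 ± 6.31 against 141 ± 16.7 CPM (log2 fold change -0.55 ± 0.095 (SE), adjusted p = 6.3e-05). Of 12 S100 calcium-binding proteins, S100A6 (2462 ± 73.4 against 2108 ± 124 CPM, log2 0.22, adjusted p = 0.023) and S100A16 (342 ± 19.9 against 276 ± 25.4 CPM, log2 0.31, adjusted p = 0.0017) were higher. S100P (435 ± 47.5 against 584 ± 45.2 CPM, log2 -0.42, adjusted p = 1.2e-06) and S100A14 (832 ± 38.0 against 933 ± 49.3 CPM, log2 -0.18, adjusted p = 0.023) were lower. These 2 higher and 2 lower genes stand beside 1.47% and 1.55% of all genes. Of these S100 genes S100P alone passed with any 1 sgRNA left out. S100A6 lost its call without PGAM1 sgRNA1 or sgRNA3 or ATF4 sgRNA6 (up to 0.14), S100A16 without PGAM1 sgRNA4 (0.074) and S100A14 without PGAM1 sgRNA2 or sgRNA4 or ATF4 sgRNA1 or sgRNA5 (up to 0.25). None of 12 PSCA, CEACAM and LY6 genes passed the main edgeR fit (2 with an unadjusted p under 0.05), and 1 passed DESeq2, which gave 5 of them no adjusted p. The fits without a filter, of the 10 sgRNAs alone and without PGAM1 sgRNA3 each called 1 higher. PSCA came nearest (64.8 ± 5.62 against 46.8 ± 15.977 CPM, log2 0.43, adjusted p = 0.087), followed by MUC20 (12.8 ± 3.44 against 21.7 ± 7.35 CPM, log2 -0.62, adjusted p = 0.24).

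Heat shock chaperones that passed were all lower with ATF4 sgRNAs. HSPA8, the constitutive cytosolic Hsc70, stood at 223, 266, 253, 286, 234 and 275 CPM with ATF4 sgRNA1 to 6 and at 408, 437, 396 and 465 CPM with PGAM1 sgRNA1 to 4, around a non-targeting mean of 362 CPM. Every ATF4 sgRNA was below every PGAM1 sgRNA, and the difference had the smallest p after PGAM1 (log2 fold change -0.74 ± 0.065 (SE), adjusted p = 1.3e-13). The cytosolic chaperones HSP90AB1 (991 ± 53.6 against 1189.6 ± 73.8 CPM, log2 -0.25, adjusted p = 1.8e-04) and HSP90AA1 (2583 ± 138 against 3021 ± 90.5 CPM, log2 -0.23, adjusted p = 0.0012) were lower too. Mitochondrial HSPD1 (791 ± 43.7 against 908 ± 56.9 CPM, log2 -0.19, adjusted p = 0.012) and inducible HSPA1A (76.0 ± 4.31 against 106 ± 18.1 CPM, log2 -0.43, adjusted p = 0.042) brought the count to 5 of 18, with a median of -0.16. HSPD1 and HSPA1A lost their calls without PGAM1 sgRNA2, which left 3, and HSPA1A, which has a near-identical copy whose reads may be split, in 7 of 10 such fits (up to 0.28). In the endoplasmic reticulum 3 of 23 genes of the unfolded protein response were lower (beside 1.55% of all genes). HERPUD1, which helps degrade misfolded proteins, stood at 44.5 to 68.3 CPM (median 52.4) with the ATF4 sgRNAs and 90.1, 92.0, 80.3 and 108 CPM with the PGAM1 sgRNAs (log2 fold change -0.75 ± 0.11 (SE), adjusted p = 1.7e-06). The Hsp70 chaperone HSPA5 (113 ± 11.2 against 146 ± 19.4 CPM, log2 -0.46, adjusted p = 1.4e-04) and the transcription factor XBP1 (259 ± 23.5 against 321 ± 21.0 CPM, log2 -0.32, adjusted p = 5.8e-04) were the others, and all 3 passed with any 1 sgRNA left out.

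Interferon-induced and NF-kB genes were lower in few cases. IFI44L stood at 9.59 to 13.2 CPM (median 10.6) with the ATF4 sgRNAs and 22.02, 20.3, 22.5 and 27.9 CPM with the PGAM1 sgRNAs, without overlap (log2 fold change -1.12 ± 0.23 (SE), adjusted p = 0.0010). OAS3, an RNA sensor, was lower by less (14.4 ± 3.64 against 23.4 ± 4.92 CPM, log2 -0.68, adjusted p = 0.035). UBE2L6, the conjugating enzyme for ISG15 (58.5 ± 4.33 against 75.8 ± 10.3 CPM, log2 -0.38, adjusted p = 0.037), and BST2, or tetherin (297 ± 9.25 against 365 ± 46.4 CPM, log2 -0.31, adjusted p = 0.0016), completed the 4 of 29. Those 4 stand beside 1.55% of all genes, and in all 26 of the 29 lay below 0 with a median of -0.22. All 4 calls were lost without PGAM1 sgRNA4 (IFI44L at adjusted p = 0.060), and 2 of them without ATF4 sgRNA1 or sgRNA4. In cells with at most 10% mitochondrial UMIs 0 of 27 tested members passed and their median was -0.10, while 53 of all 8767 genes tested were lower. Of 23 NF-kB genes, TNFAIP2 (182 ± 14.7 against 246 ± 43.9 CPM, log2 -0.40, adjusted p = 0.0052) and NFKBIA, the inhibitor of NF-kB (178 ± 28.6 against 213 ± 26.0 CPM, log2 -0.30, adjusted p = 0.030), were lower (beside 1.55% of all genes). TNFAIP2 lost its call without PGAM1 sgRNA2 (0.11) and NFKBIA in 6 of 10 fits without 1 sgRNA (up to 0.34). No hypoxia-inducible gene passed edgeR or DESeq2 among 17, and none had an unadjusted p under 0.05. DESeq2 gave 11 of the 17 no adjusted p. PDK1 (6.69 ± 2.89 against 11.6 ± 4.45 CPM, log2 -0.59, adjusted p = 0.35) and ANKRD37 (4.08 ± 2.15 against 4.92 ± 2.52 CPM, log2 -0.61, adjusted p = 0.48) came nearest.

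Among 41 ribosome biogenesis and growth genes 9 were higher and 1, HSPD1, was lower, and the median was 0.19. PA2G4, a growth-regulated RNA-binding protein, stood at 245 to 274 CPM (median 257) with the ATF4 sgRNAs and 198, 203, 196 and 184 CPM with the PGAM1 sgRNAs (log2 fold change 0.41 ± 0.069 (SE), adjusted p = 3.5e-05). ODC1, the first enzyme of polyamine synthesis, stood at 140.3 to 181 CPM (median 159) with the ATF4 sgRNAs and 88.1, 139, 107 and 103 CPM with the PGAM1 sgRNAs (log2 fold change 0.51 ± 0.096 (SE), adjusted p = 1.9e-04). BOP1, which processes the large subunit rRNA (55.2 ± 3.76 against 37.3 ± 2.25 CPM, log2 0.52, adjusted p = 0.0028), and NME1, a nucleoside diphosphate kinase (305 ± 19.7 against 247 ± 28.2 CPM, log2 0.28, adjusted p = 0.0042), passed with any 1 sgRNA left out, as did PA2G4 and ODC1. RRS1 (log2 0.81, adjusted p = 0.029), MRTO4 (log2 0.49, adjusted p = 0.017), DKC1 (log2 0.32, adjusted p = 0.048), NOP56 (log2 0.27, adjusted p = 0.023) and SRM (log2 0.35, adjusted p = 0.0496) did not, and 5 members were left without PGAM1 sgRNA4 or ATF4 sgRNA5. None of the 9 passed in G1-scored cells or in cells with at most 10% mitochondrial UMIs. The median of the list was 0.12 in the former and 0.22 in the latter. Of 20 snoRNA host genes, 3 were higher (beside 1.47% of all genes). ZFAS1 stood at 1494 to 2063 CPM (median 1710.3) with the ATF4 sgRNAs and 1311, 1329, 1341 and 1284 CPM with the PGAM1 sgRNAs (log2 fold change 0.36 ± 0.057 (SE), adjusted p = 1.1e-05). SNHG8 stood at 258 to 329 CPM (median 307) with the ATF4 sgRNAs and 206, 195, 209.8 and 212 CPM with the PGAM1 sgRNAs (log2 fold change 0.50 ± 0.086 (SE), adjusted p = 5.5e-05), and like ZFAS1 it showed no overlap. SNHG5 was higher too (80.5 ± 10.5 against 60.3 ± 8.26 CPM, log2 0.41, adjusted p = 0.037) and lost its call in 7 of 10 fits without 1 sgRNA (up to 0.18).

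Of 79 cytosolic ribosomal proteins tested, 19 passed, all lower, with log2 fold changes from -0.25 to -0.12, and 73 of 79 lay below 0 (median -0.09). RPS9 stood at 2748 to 3203 CPM (median 2967) with the ATF4 sgRNAs and 3474, 3610.2, 3431 and 3729 CPM with the PGAM1 sgRNAs, the largest of these differences (log2 fold change -0.25 ± 0.042 (SE), adjusted p = 3.3e-05). Its sgRNAs did not overlap between the groups. RPL27A (log2 -0.22, adjusted p = 2.4e-04), RPL24 (log2 -0.19, adjusted p = 8.9e-04), RPL13A (log2 -0.15, adjusted p = 0.0043) and RPL23 (log2 -0.20, adjusted p = 0.0079) passed with any 1 sgRNA left out, as RPS9 did. PGAM1 sgRNA4 carried much of the count: without it 6 passed, and without ATF4 sgRNA1 12 passed. DESeq2 called 29 lower and 1 higher. With no filter on low counts 5 passed, with the stricter sgRNA rule 4 and under the 10% limit on mitochondrial UMIs 3, all lower.

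**Figure D5:**
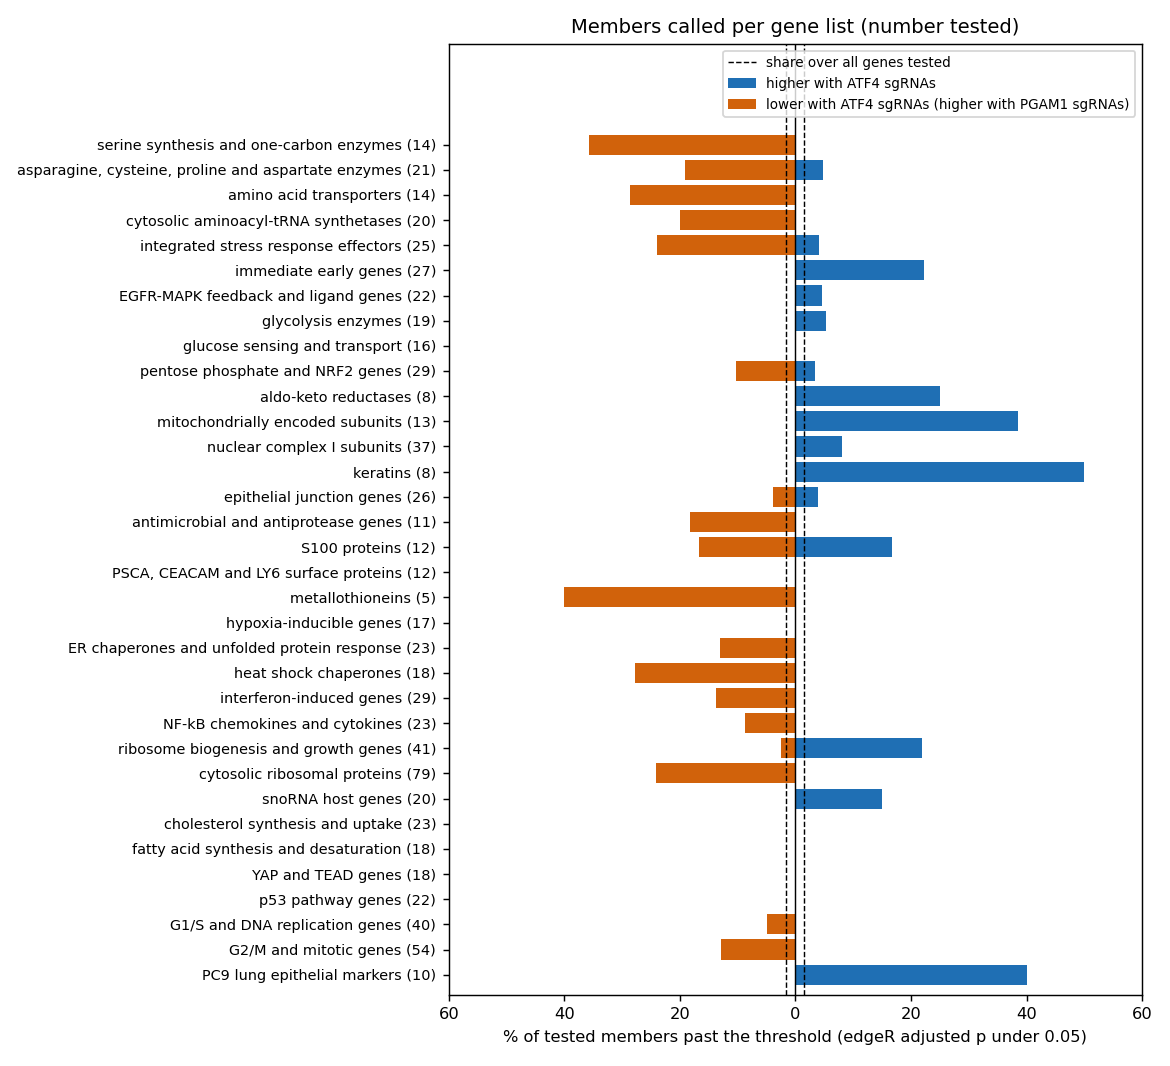
Share of the tested members of each gene list (%) past an edgeR adjusted p of 0.05, to the right for genes higher and to the left for genes lower with ATF4 sgRNAs, with dashed lines at the shares over all genes tested (1.47% and 1.55%). Serine enzymes, transporters, heat shock chaperones and metallothioneins reach furthest left, keratins, PC9 markers (themselves partly keratins) and mitochondrially encoded subunits furthest right, and 7 lists of cell metabolism, signalling and stress have no bar.

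Mitotic genes were lower with ATF4 sgRNAs in 7 of 54 cases, and 48 of 54 lay below 0, with a median of -0.24. TUBA1B, an alpha tubulin, stood at 692 to 807 CPM (median 762) with the ATF4 sgRNAs and 897, 908, 866 and 925 CPM with the PGAM1 sgRNAs (log2 fold change -0.23 ± 0.048 (SE), adjusted p = 9.1e-04). HMGB2, a chromatin protein, stood at 198 to 238 CPM (median 211) with the ATF4 sgRNAs and 304, 244, 288 and 259 CPM with the PGAM1 sgRNAs (log2 fold change -0.37 ± 0.083 (SE), adjusted p = 0.0030). These 2 passed with any 1 sgRNA left out. TOP2A, topoisomerase II, stood at 68.4 to 84.5 CPM (median 73.0) with the ATF4 sgRNAs and 96.1, 78.5, 156 and 93.5 CPM with the PGAM1 sgRNAs (log2 -0.58, adjusted p = 0.021), and there PGAM1 sgRNA3 stood far above the rest. HMMR (log2 -0.49, adjusted p = 0.031), KIF20B (log2 -0.44, adjusted p = 0.026), BUB1B (log2 -0.92, adjusted p = 0.017) and STMN1 (log2 -0.35, adjusted p = 0.0070) made up the count, and these 4 and TOP2A lost their calls without PGAM1 sgRNA3 (TOP2A at adjusted p = 0.53), which left 2. In G1-scored cells alone none of 30 tested members passed, and HMMR and TOP2A turned in sign (log2 0.61 and 0.98). Such cells are chosen for low S and G2/M scores, so mitotic transcripts are few there by selection. G2/M-scored cells made up 31.4% with ATF4 sgRNAs and 34.7% with PGAM1 sgRNAs, and their part in the result was not tested. Of 40 G1/S and replication genes 2 were lower (beside 1.55% of all genes), among them RRM1, a subunit of ribonucleotide reductase (49.99 ± 7.83 against 69.2 ± 13.4 CPM, log2 -0.41, adjusted p = 0.049). RRM1 lost its call in 8 of the 10 fits without 1 sgRNA (up to 0.17), and no member passed without PGAM1 sgRNA1 or sgRNA3 or ATF4 sgRNA3 or sgRNA6.

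Lists of lipid synthesis, YAP and p53 held no gene past the threshold in the main edgeR fit or with DESeq2. Other settings gave single calls. Without PGAM1 sgRNA3 1 cholesterol and 1 YAP gene were higher, and with the looser sgRNA rule 1 fatty acid gene was. Among p53 genes 1 was lower with the looser rule, under the 10% limit on mitochondrial UMIs and in G1-scored cells. Of 23 cholesterol genes 4 had an unadjusted p under 0.05, of 18 fatty acid genes 3, of 18 YAP and TEAD genes 4 and of 22 p53 genes 5, beside 14.9% of all genes tested. DESeq2 gave no adjusted p for 12 of the 23 cholesterol, 7 of the 18 fatty acid, 14 of the 18 YAP and TEAD and 16 of the 22 p53 genes. The nearest cholesterol genes were CYP51A1 (40.8 ± 5.11 against 29.8 ± 6.81 CPM, log2 0.43, adjusted p = 0.078) and HSD17B7 (7.43 ± 3.13 against 3.32 ± 0.909 CPM, log2 0.92, adjusted p = 0.19). Those of fatty acid synthesis were FASN (42.8 ± 7.05 against 35.4 ± 3.90 CPM, log2 0.40, adjusted p = 0.11) and ELOVL6 (15.996 ± 1.61 against 10.9 ± 1.02 CPM, log2 0.51, adjusted p = 0.23). WWC1 (log2 0.37, adjusted p = 0.14) and F3 (log2 0.34, adjusted p = 0.16) came nearest among YAP genes, and XPC (log2 -0.36, adjusted p = 0.17) and POLH (log2 -1.02, adjusted p = 0.19) among p53 genes.

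Several of the largest differences lay outside these lists. LMO4, a LIM-only transcriptional adaptor, stood at 26.6 to 40.0 CPM (median 34.9) with the ATF4 sgRNAs and 68.0, 78.5, 72.5 and 67.5 CPM with the PGAM1 sgRNAs, with the groups on either side of the non-targeting mean of 48.1 CPM (log2 fold change -0.99 ± 0.12 (SE), adjusted p = 6.0e-09). SLC16A4, a member of the monocarboxylate transporter family, stood at 14.96 to 28.3 CPM (median 19.0) with the ATF4 sgRNAs and 50.03, 52.8, 35.9 and 43.3 CPM with the PGAM1 sgRNAs (log2 fold change -0.94 ± 0.16 (SE), adjusted p = 5.5e-05). PIP5KL1 stood at 8.85 to 16.1 CPM (median 11.4) with the ATF4 sgRNAs and 40.0, 28.4, 37.3 and 22.3 CPM with the PGAM1 sgRNAs (log2 fold change -1.19 ± 0.21 (SE), adjusted p = 5.3e-05). All 3 were without overlap and passed under every alternative run. ECM2, an extracellular matrix protein, was lower with ATF4 sgRNAs (5.09 ± 1.72 against 17.6 ± 4.83 CPM, log2 -1.63, adjusted p = 1.3e-06). The long non-coding RNA LINC01133 (6.45 ± 2.20 against 20.1 ± 6.45 CPM, log2 -1.43, adjusted p = 1.8e-04) and RHBDL1, a rhomboid protease (7.30 ± 1.84 against 18.6 ± 7.78 CPM, log2 -1.14, adjusted p = 9.8e-04), were lower as well, and all 3 passed with any 1 sgRNA left out. ECM2 and RHBDL1 did not pass under the 10% limit on mitochondrial UMIs, nor LINC01133 and RHBDL1 in G1-scored cells. RHBDL1 also lost its call with the stricter sgRNA rule and in thinned sums. SAA2 (log2 -1.25, adjusted p = 0.0044), an acute-phase protein with a close paralog, and AC083841.1 (log2 -0.99, adjusted p = 0.0017) lost their calls without PGAM1 sgRNA4 (adjusted p = 0.093 and 0.12). TIMP4, a metalloproteinase inhibitor (log2 -0.998, adjusted p = 0.017), did so without PGAM1 sgRNA3 (0.47), and CIPC, a repressor of the circadian clock (log2 -0.88, adjusted p = 0.019), without either (up to 0.31).

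Fewer genes outside the lists were much higher with ATF4 sgRNAs. PKIB, an inhibitor of protein kinase A, stood at 24.6 to 32.2 CPM (median 29.6) with the ATF4 sgRNAs and 22.02, 16.2, 11.3 and 14.2 CPM with the PGAM1 sgRNAs (log2 fold change 0.95 ± 0.19 (SE), adjusted p = 7.3e-04) and passed with any 1 sgRNA left out. EEF2KMT, a methyltransferase of elongation factor 2 (21.3 ± 4.89 against 11.4 ± 3.05 CPM, log2 1.057, adjusted p = 0.0010), and CD24, a surface glycoprotein (46.7 ± 9.34 against 26.5 ± 6.45 CPM, log2 0.91, adjusted p = 0.0022), did so except without PGAM1 sgRNA4 (adjusted p = 0.060 and 0.060). IRX3, a homeobox factor (17.9 ± 3.55 against 9.30 ± 1.43 CPM, log2 0.93, adjusted p = 0.012), lost its call without PGAM1 sgRNA3 (0.0503). PKIB, EEF2KMT, CD24 and IRX3 did not pass in cells with at most 10% mitochondrial UMIs. EEF2KMT, CD24 and IRX3 also lost their calls in G1-scored cells and with the stricter sgRNA rule, and CD24 and IRX3 in thinned sums. The antisense RNA IGFL2-AS1 (28.3 ± 6.16 against 15.9 ± 3.79 CPM, log2 0.88, adjusted p = 0.028), whose reads may not be separable from an overlapping gene, was called in 7 of 10 fits without 1 sgRNA, and AC010327.4 (25.0 ± 6.28 against 12.2 ± 3.91 CPM, log2 0.88, adjusted p = 0.025) in 4 of 10.

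Around the targeted genes, within 250 kb by the reference gene table, 2 of 5 tested neighbours of ATF4 and 0 of 11 of PGAM1 passed, beside 3.02% of all genes. RPS19BP1, 6.41 kb from ATF4 (chr22:39529093-39532748), was higher with ATF4 sgRNAs at 198 ± 22.3 against 164 ± 10.9 CPM (log2 fold change 0.29 ± 0.077, adjusted p = 0.017). RPL3, 201 kb from ATF4, was lower like other ribosomal proteins (2942 ± 139 against 3244 ± 96.1 CPM, log2 -0.14, adjusted p = 0.025). MIEF1, 2.43 kb from ATF4, gave a log2 fold change of -0.00 (30.5 ± 3.74 against 31.99 ± 4.49 CPM). None of 11 tested neighbours of PGAM1 passed edgeR or had an unadjusted p under 0.05, and DESeq2 gave 10 of them no adjusted p; the nearest, EXOSC1 at 2.46 kb, stood at 61.6 ± 8.94 against 73.4 ± 20.9 CPM.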

How the data were processed

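The authors deposited raw counts: whole-number UMI counts per gene or sgRNA and cell barcode, which the file headers give as output of Cell Ranger 6.1.2, with hg38 per the submitters' processing notes. Not given in the sources used here are strand handling, the treatment of reads shared by similar genes, and doublet removal. Of 10847 barcodes 10142 were kept and 5556 assigned by the stated rule; no doublet caller was run. Gene counts were summed per sgRNA. Sums of the 34 sgRNAs with at least 20 cells, of all targets, entered 1 edgeR 4.0.16 fit (R 4.3.3, TMM, filterByExpr, glmQLFTest, Benjamini-Hochberg over 11570 genes), and ATF4 minus PGAM1 was its contrast. SDs are over CPM of single sgRNAs. Cell phases came from scanpy 1.11.5, and cell measures were compared by exact permutation (SciPy 1.17.1). On simulated data with 11570 genes the test recovered 52% of genes changed by log2 0.5 and 97% of those changed by log2 1, with 11 false calls. Changed genes there had at least 10 CPM, and every gene had the same dispersion. Recovery of genes with fewer counts or more spread between sgRNAs was not simulated. The members and the 36 gene lists were chosen with earlier results of these data known. Named are both targets, the 15 largest increases and decreases (called, at least 10 CPM on average, every sgRNA on its side of the other target's mean), every called member of a list, or its 2 of smallest p; some items that the rule names are not reported here. Alternatives were DESeq2 1.42.0, its size factors, no filter, a fit of the 10 sgRNAs alone, looser (3 UMIs, 60%) and stricter (10 UMIs, 90%) assignment, subsets of cells, thinned sums and each sgRNA left out. Promoters came from RefSeq (GRCh38.p14); 24861 of 36601 features matched by symbol.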

Additional observations from a re-analysis of the deposited data

Results flagged for a closer look

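Of 304 sets of sgRNA values checked, 20 (6.58%) had 1 sgRNA far from the others of its target by Dixon's test; chance marks about 1 in 20. With PGAM1 sgRNA1, which 37 cells held, KLF6 (32.02 CPM, next 22.5), SLC7A5 (74.1, next 46.0), DDIT3 (54.0, next 31.7) and WWC1 (42.0, next 33.8) stood high and EPHA4 (8.01, next 14.9) low. With PGAM1 sgRNA2, MT-CYB (8384 CPM, next 9667) and the median mitochondrial share (8.52%, next 9.86%) stood low and HSP90AA1 (3156, next 2990.3) high. With PGAM1 sgRNA3, TIMP4 (32.4 CPM, next 16.1) and TXNIP (234, next 196) stood high. With PGAM1 sgRNA4, RPL7A (2499 CPM, next 2259.5) and RPS25 (1453, next 1369) stood high.

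Among ATF4 sgRNAs, sgRNA1 was high for KLF6 (76.0 CPM, next 51.4), RRM1 (65.7, next 49.5) and HMGB2 (238, next 211) and low for RPL29 (3134, next 3379.5) and RPL38 (375, next 404). ATF4 sgRNA2, held by 49 cells, was low for MT-ND5 (1627 CPM, next 1841) and high for NFKBIA (235, next 176). ATF4 sgRNA4, held by the most cells of its target, was high for FOS (112 CPM, next 89.5).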

How the results depend on the processing

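No paired analysis was possible because sgRNA numbers of different targets share nothing but the number. All cells came from 1 culture, and sums of 37 to 256 cells limit what low genes can show. The total of 349 genes fell to 176 with the stricter sgRNA rule (without ATF4 sgRNA2, 12 cells), 107 under a 10% limit on mitochondrial UMIs, 115 in G1-scored cells (both without PGAM1 sgRNA1) and 153 in thinned sums, where fewer cells or UMIs entered. In that order 95, 54, 34 and 76 were higher and 81, 53, 81 and 77 lower. With 1 sgRNA left out the total ranged from 199 (without PGAM1 sgRNA4) to 360, the higher genes from 106 to 173 and the lower from 93 to 193. Without a filter on low counts 237 were higher and 147 lower of 22482 tested, and fitted alone 191 and 232 of 9330; DESeq2 called 202 and 183, with no adjusted p for 6954 genes. No-filter and G1-scored fits moved the share of higher genes from 48.7% to 61.7% and 29.6%.

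Cell measures turned in sign for median UMIs per sgRNA (401 to -40.9) and median genes per sgRNA (34.3 to -44.2) without PGAM1 sgRNA4, and for the S share (-2.33 to 1.51 points) and genes (-2.38) in cells thinned to 5000 UMIs, a setting chosen after seeing the data; over single sgRNAs left out the UMI difference ran from -40.9 to 663 and the gene difference from -44.2 to 75.2. Of 2825 values of named genes under alternatives, 2291 kept direction and side of the threshold, 524 fell below it and 7 rose past it. The reversed ones were ANKRD37 in thinned sums (0.27), HMMR (0.61) and TOP2A (0.98) in G1-scored cells; the cause was not tested.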

Other observations

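Within the ATF4 sgRNAs, genes that were lower differed in which sgRNA had most of them, and the genes here were chosen after their values were seen. ATF4 sgRNA6 had the lowest ATF4 transcript of the 6 (186 CPM) and at the same time the highest NUPR1 (23.3 CPM), DDIT4 (94.9 CPM), MTHFD2 (165 CPM), PSAT1 (194 CPM), PHGDH (477 CPM) and PCK2 (101 CPM). ATF4 sgRNA4 had the most ATF4 transcript (332 CPM), and NUPR1 stood at 12.8 CPM there. STC2 (33.2 CPM), ASS1 (89.0 CPM), CTH (8.90 CPM), SLC1A4 (2.97 CPM) and LMO4 (40.0 CPM) were highest with ATF4 sgRNA4. For the 6 genes named with ATF4 sgRNA6, every ATF4 sgRNA lay below every PGAM1 sgRNA. Among the PGAM1 sgRNAs, sgRNA1 kept the most PGAM1 transcript (102 CPM) and sgRNA4 the least (53.2 CPM), and FOS stood at 38.0 and 30.3 CPM with them, EGR1 at 6.00 and 9.90 CPM, and NUPR1 at 72.0 and 55.1 CPM.

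Calls outside the rule for named genes included 2 genes with the largest increases of all, chosen here for that size: AL512274.1 (2.91 ± 1.49 against 0.331 ± 0.384 CPM, log2 2.66, adjusted p = 0.036) and AL136169.1 (4.24 ± 1.41 against 0.464 ± 0.928 CPM, log2 2.45, adjusted p = 0.024), both near the limit of counting. Among the decreases, COL5A1, a collagen chain, was of the same kind (0.992 ± 0.999 against 4.68 ± 2.95 CPM, log2 -2.06, adjusted p = 0.016).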
